A study of Mus musculus with 6 samples.

Results

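The miR-26 and miR-103/miR-107 families are pairs of near-identical miRNAs that mature from introns of protein-coding genes, the Ctdsp genes for miR-26 and the Pank genes for miR-103/miR-107. They were examined in extracellular vesicles (EVs) of the mouse colon and of bone marrow-derived dendritic cells (BMDCs). Their members were taken by name from the table of mature miRNAs, namely mmu-miR-26a-5p, mmu-miR-26b-5p, mmu-miR-26b-3p, mmu-miR-103-3p and mmu-miR-107-3p (written without the species prefix from here on), which are 5 of the 1966 miRNAs listed. Small RNA libraries were made from 3 colon EV and 3 BMDC EV preparations, and all 6 carry the label Rab27A fl/fl, a floxed genotype for which no Cre is named. Colon explants were cultured for 16 hours, and their EVs were taken from fraction 2 of an iodixanol gradient. BMDCs were bone marrow cells grown for 7 days with GM-CSF, and the labels give the gradient to the colon preparations alone. The paper's methods describe exosome-depleted serum for the explants, complete medium for the BMDCs and adult mice of both sexes on a C57BL/6 background. The labels and methods name the gradient for colon EVs, whereas the paper's account of its results names it for both sources, so its use for BMDC EVs is not settled here. Source and medium cannot be told apart in this comparison, nor can the gradient if it was used for colon EVs alone.

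miRNAs are cut from hairpin transcripts, and bases 2 to 8 of the mature strand, the seed, pair with target mRNAs. Each of the hairpins of these families lies inside its host gene on the same strand, and whether it is transcribed together with that gene was not tested here. The Ctdsp genes encode small phosphatases that act on the C-terminal domain of RNA polymerase II, and the Pank genes encode pantothenate kinases, which catalyse the rate-limiting step of coenzyme A synthesis. Both families are expressed in many tissues. miR-26 is known as a repressor of the chromatin methyltransferase Ezh2, and miR-103/miR-107 as repressors of Dicer, the enzyme that releases miRNAs from their hairpins, and of caveolin-1.

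The mature sequences are given because the paralogs of each family can be told apart at few bases. Capitals mark the seed, and sequences are those of RefSeq on GRCm38.p6, in which all 5 members were found.
miR-26a-5p: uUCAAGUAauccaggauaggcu
miR-26b-5p: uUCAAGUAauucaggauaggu
miR-26b-3p: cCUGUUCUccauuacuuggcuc
miR-103-3p: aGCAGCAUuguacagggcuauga
miR-107-3p: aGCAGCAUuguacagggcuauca

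With positions counted from 1 at the 5′ end, miR-26b-5p differs from miR-26a-5p by C11U and C21U, so that both share their first 10 bases. miR-107-3p differs from miR-103-3p by G22C alone, and both share their first 21 bases. A read that ends before base 22 therefore holds no base that parts miR-103-3p from miR-107-3p. Of the 1966 miRNAs of the table, 1675 were matched to a mature sequence. Among these, none besides the paralogs listed had the seed UCAAGUA or GCAGCAU. The estimated counts of miR-26a-5p, miR-26b-5p, miR-103-3p and miR-107-3p had a fractional part above 0.005 counts in each of the 6 libraries, and how the authors divided reads that match more than 1 place is not given in the sources used here. The balance of miR-103-3p and miR-107-3p depends on that division more than their sum does.

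In GRCm38, miR-26a-5p has 2 hairpins of identical mature sequence, Mir26a-1 in intron 5 of Ctdspl (chromosome 9, 119031796 to 119031885, plus strand) and Mir26a-2 in intron 5 of Ctdsp2 (chromosome 10, 126995530 to 126995613, plus strand). The other coding transcript of Ctdsp2 is annotated with an exon that starts at 126995613, the last base of that hairpin. Mir26b, the single hairpin of both miR-26b arms, lies in intron 4 of Ctdsp1 (chromosome 1, 74394310 to 74394394, plus strand). miR-103-3p also has 2 hairpins, Mir103-1 in intron 5 of Pank3 (chromosome 11, 35782396 to 35782481, plus strand) and Mir103-2 in intron 5 of Pank2 (chromosome 2, 131288052 to 131288137, plus strand). Mir107 lies in intron 5 of Pank1 (chromosome 19, 34820687 to 34820773, minus strand). Introns are numbered in the principal coding transcript of GENCODE vM21, and every hairpin has the strand of its host. Since the mature sequences of the copies are identical, the counts do not show which of the hairpins miR-26a-5p or miR-103-3p came from.

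The libraries held 83997 to 645303 counts, so that 3 counts, taken as the floor for counting error, were 4.65 to 35.7 CPM, the count scaled to a common library total. The sources were as labelled by their marker miRNAs. The 8 epithelial miRNAs of a list (the miR-200 family, miR-192, miR-194 and miR-215) held 22.4% to 29.8% of the counts of colon EVs and 0.374% to 0.791% of those of BMDC EVs. The 7 haematopoietic miRNAs (such as miR-223-3p and miR-155-5p) held 0.514% to 1.19% and 30.7% to 32.3%, respectively. Of 5 mesenchymal and 3 red cell miRNAs, none made up more than 0.207% in sum in a library, and miR-144-3p of red cells was at 0 in all BMDC EV libraries and miR-486a-5p in all colon EV libraries. Counts were rounded and scaled by TMM, which takes most miRNAs as equal between libraries, and values called normalized CPM are on that scale. miR-486b-5p, which the red cell list leaves out, was at 51.6, 109 and 176 normalized CPM in colon EVs. In BMDC EVs it was at 589, 581 and 513. A miRNA was tested if 3 or more libraries had 10 or more counts of it, and the 220 miRNAs that passed were compared by edgeR's quasi-likelihood test with p-values adjusted after Benjamini-Hochberg, called the adjusted p below. Of these, 76.8% had an adjusted p under 0.05 in either direction. In bulk EV preparations, fewer vesicles from a cell type and less of a miRNA per vesicle cannot be told apart, and the labels do not say whether replicates came from separate animals or cultures, so p-values measure the spread between these preparations.

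The 4 members that passed the count filter were, in each source, at levels that differed by over an order of magnitude, with miR-26b-5p the highest and miR-107-3p the lowest. Of these 4, 3 were higher in colon EVs, miR-26a-5p by 3.39-fold, miR-26b-5p by 2.11-fold and miR-103-3p by 1.83-fold, and miR-107-3p did not pass the test. The call of miR-103-3p was lost in 4 of 22 other ways of processing. As background, 36.4% of all tested miRNAs were called higher in colon EVs and 40.5% higher in BMDC EVs, and with so many calls the number of members called is no result about the families. The fifth member, miR-26b-3p, was near the floor in both sources and was not tested. Together the 5 members held 2.36% to 3.03% of the counts of colon EVs and 1.53% to 1.62% of those of BMDC EVs, so both families were a minor part of the miRNA of either source.

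**Figure D1:**
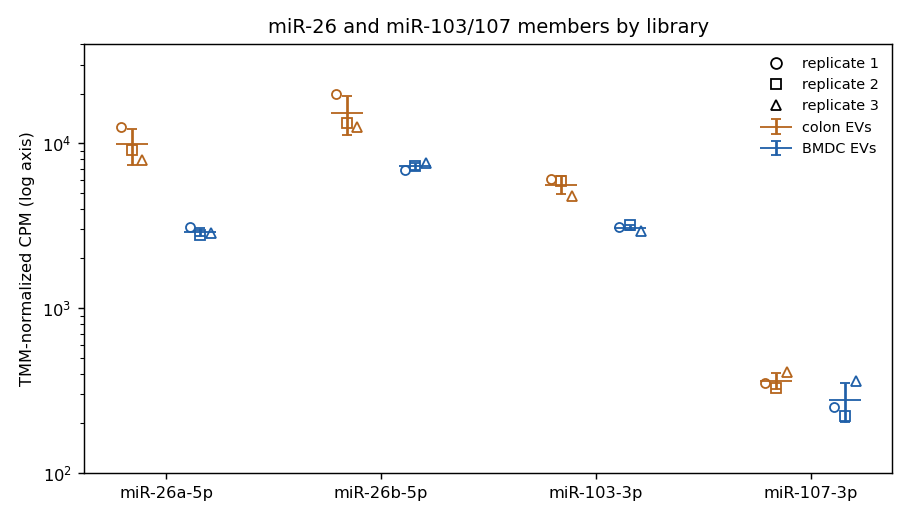
Normalized CPM (TMM-scaled counts, log axis) of the 4 tested members in each library, with colon EVs in brown and BMDC EVs in blue; symbols mark replicates, and the bar with its whiskers is the mean ± SD (n = 3). Colon EV libraries lie above BMDC EV libraries for miR-26a-5p, miR-26b-5p and miR-103-3p, whereas the sources overlap for miR-107-3p.

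miR-26a-5p, the copy encoded in Ctdspl and Ctdsp2, had a count of 6327, 1824 and 1258 in colon EV replicates 1 to 3, against 477, 277 and 565 in BMDC EV replicates 1 to 3. Its normalized CPM was 12566, 9062 and 7899 in colon EVs and 3089, 2774 and 2844 in BMDC EVs. Every colon EV library was above every BMDC EV library, as for 39.1% of tested miRNAs (81.8% had no overlap in one or the other direction), and colon EV replicate 1, the deepest library, was the highest. The means were 9842 ± 2429 (SD, n = 3) for colon EVs against 2902 ± 165 (SD, n = 3) for BMDC EVs. On the log2 scale its level was lower in BMDC EVs by a fold change of −1.76 (standard error 0.227, edgeR adjusted p = 1.22e-06), with a 95% interval from −2.24 to −1.28. By abundance it ranked 26 in colon EVs and 37 in BMDC EVs. When any single library was left out, the call was kept and the log2 fold change lay between −2.16 and −1.26.

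miR-26b-5p, encoded in Ctdsp1, was the most abundant member in all 6 libraries. It had a count of 9974, 2683 and 2001 in colon EV replicates 1 to 3, against 1062, 726 and 1502 in BMDC EV replicates 1 to 3. Its normalized CPM was 19809, 13330.2 and 12565 in colon EVs and 6876, 7270.3 and 7561 in BMDC EVs. Here too no BMDC EV library reached the lowest colon EV library, and the spread was wider among colon EVs, 15234 ± 3979.9 (SD, n = 3), than among BMDC EVs, 7236 ± 344 (SD, n = 3). The log2 fold change was −1.07 (standard error 0.227, edgeR adjusted p = 0.000301), with a 95% interval from −1.55 to −0.60. It was −0.64, −0.61 and −0.67 without BMDC EV replicate 1, 2 or 3, with adjusted p = 0.0332, 0.0404 and 0.0201 by edgeR, in fits where fewer miRNAs also passed the filter. A filter set to 2 libraries in place of 3 was added after the data were seen. With it, leaving out the same libraries gave −1.04, −1.15 and −1.16.

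miR-103-3p, encoded in Pank3 and Pank2, had a count of 3069.9, 1192 and 766 in colon EV replicates 1 to 3, against 478, 318 and 586 in BMDC EV replicates 1 to 3. Its normalized CPM was 6097, 5922 and 4809.8 in colon EVs and 3095, 3184 and 2950.1 in BMDC EVs, without overlap between the sources. By abundance it ranked 34 in both sources. The means were 5609.8 ± 698 (SD, n = 3) and 3077 ± 118 (SD, n = 3), a log2 fold change of −0.87 (standard error 0.205, edgeR adjusted p = 0.000820), with a 95% interval from −1.30 to −0.44. The call was lost when a BMDC EV library was left out: without BMDC EV replicate 1, 2 or 3 the log2 fold change was −0.49, −0.44 and −0.41, with edgeR adjusted p = 0.0739, 0.125 and 0.123. With all 6 libraries scaled by their totals alone the call was lost as well, at −0.40 with edgeR adjusted p = 0.0619. The fits with a library left out also drop miRNAs that need all BMDC EV libraries to pass the filter. A filter set to 2 libraries in place of 3 was added after the data were seen. With it, the change lay between −1.09 and −0.87 over the 6 fits with a library left out. The call was kept in each, with edgeR adjusted p of at most 0.00434.

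miR-107-3p, encoded in Pank1, was the scarce paralog. It had a count of 177, 66.4 and 64.6 in colon EV replicates 1 to 3, against 38.8, 22.1 and 71.9 in BMDC EV replicates 1 to 3. Its normalized CPM was 352, 328 and 408 in colon EVs and 253, 220.3 and 362 in BMDC EVs. BMDC EV replicate 3 lay above colon EV replicates 1 and 2, so the sources overlapped. The means were 363 ± 41.2 (SD, n = 3) and 278 ± 74.5 (SD, n = 3), a log2 fold change of −0.36 (standard error 0.345, edgeR adjusted p = 0.341). The 95% interval, from −1.08 to 0.37, covers both a change as large as that of miR-103-3p and a small change in the other direction. With the libraries scaled by their totals alone the sign turned, to 0.088. The TMM factors were 0.780 to 0.919 in colon EVs and 1.11 to 1.22 in BMDC EVs. Its mean normalized count of 61.4 was under 100, the base level named in the paper's methods, which the other 3 tested members exceeded.

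miR-26b-3p, the arm opposite miR-26b-5p on the same hairpin, had a count of 7.1, 5 and 0 in colon EV replicates 1 to 3, against 0, 0 and 4 in BMDC EV replicates 1 to 3. These values are at or near the floor of 3 counts per library, and no fold change is given. Among the counts of both arms of Mir26b, the 3p arm held 0.0701% in colon EV replicate 1, with a 95% Wilson interval from 0.0340% to 0.145%, 0.186% in colon EV replicate 2, with an interval from 0.0795% to 0.435%, and 0.266% in BMDC EV replicate 3, with an interval from 0.103% to 0.681%. The mean share was 0.0854% in colon EVs and 0.0885% in BMDC EVs. By the floor of 3 counts, a count of 0 allows a share of up to 0.150% in colon EV replicate 3, 0.282% in BMDC EV replicate 1 and 0.413% in BMDC EV replicate 2, and the upper Wilson limits there were 0.192%, 0.360% and 0.526%. The opposite arms of the other hairpins were as scarce. miR-26a-1-3p had at most 4 counts in a library and miR-26a-2-3p at most 9, miR-103-1-5p had 0.5 counts in 1 library alone, and miR-103-2-5p and miR-107-5p were listed at 0 throughout. No hairpin of either family was therefore among the 31 whose arms could be compared. These intervals and floors cover counting error only.

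**Figure D2:**
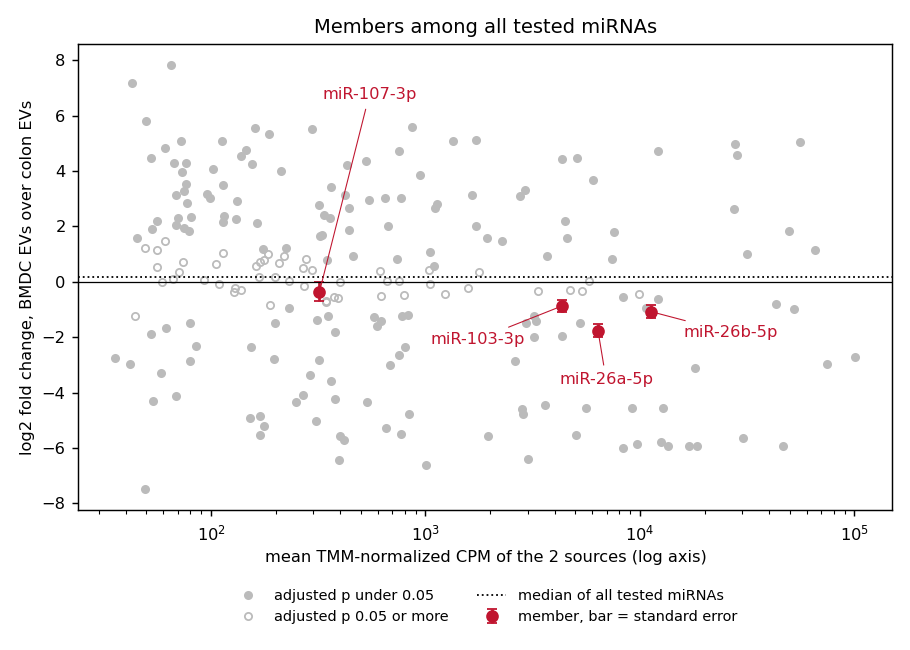
Log2 fold change of BMDC EVs over colon EVs against the mean normalized CPM of both sources (log axis) for the 220 tested miRNAs, in grey, with the 4 tested members in red and their standard errors as bars. The members lie below 0, from −1.76 for miR-26a-5p to −0.36 for miR-107-3p, well inside the range of all miRNAs, which runs from −7.49 to 7.83, and the dotted line marks the median of 0.19.

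Set against all tested miRNAs, the members changed little. In order of the size of the change, miR-26a-5p was number 130 of 220, miR-26b-5p number 159, miR-103-3p number 169 and miR-107-3p number 200. In the fit reported here, none of the 4 reached a log2 fold change of 2 in either direction, whereas 13.2% of tested miRNAs passed the test with a mean normalized count of at least 100 and were lower in BMDC EVs by at least that much. In some other fits miR-26a-5p did, at −2.30 with no filter and at −2.09 and −2.16 without colon EV replicate 2 or 3. The median log2 fold change of all tested miRNAs was 0.19 with TMM, 0.39 with upper quartile factors and 0.64 with library totals alone. Relative to that median, miR-26a-5p was at −1.95 with TMM and −1.92 with library totals, miR-26b-5p at −1.26 and −1.23, miR-103-3p at −1.06 and −1.04, and miR-107-3p at −0.55 in both. A change of scaling moves all miRNAs by nearly the same amount, so these distances could hardly change with it. With a library left out they did, and that of miR-103-3p ran from −1.75 without colon EV replicate 3 to −0.40 without BMDC EV replicate 3. In all 23 fits tried, the log2 fold change was lowest for miR-26a-5p, followed by miR-26b-5p, miR-103-3p and miR-107-3p. These fits reuse the same 6 libraries, and the order itself was not tested. The 95% intervals of miR-26b-5p, miR-103-3p and miR-107-3p overlap. That of miR-26a-5p overlaps those of miR-26b-5p and, narrowly, miR-103-3p, but not that of miR-107-3p.

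Paralog balance was compared within each library, where the scaling of libraries cancels. For every 100 counts of the 2 miR-26 5p members, miR-26a-5p held fewer in BMDC EVs than in colon EVs. Its share in colon EV replicates 1 to 3 was 38.8%, 40.5% and 38.6%, and the 95% Wilson intervals ran from 38.1% to 39.6%, 39.0% to 41.9% and 36.9% to 40.3%. In BMDC EV replicates 1, 2 and 3 it was 31.0%, 27.6% and 27.3%, with intervals from 28.7% to 33.3%, 24.9% to 30.5% and 25.4% to 29.3%. The shares of the sources did not overlap, nor did the counting intervals, and miR-26b-5p held the larger part in every library. Among single miRNAs, 81.8% had levels without overlap between the sources. How many other paralog pairs separate by their share was not counted. The ratio of miR-26a-5p to miR-26b-5p was 0.648 ± 0.0280 (SD, n = 3) for colon EVs against 0.402 ± 0.0408 (SD, n = 3) for BMDC EVs, and an exact two-sided permutation test gave p = 0.10, the smallest that 3 against 3 libraries allow.

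For the balance test across the table, miRNAs were grouped by seed, which was known for 195 of the 220 tested. The others, such as miR-30b-5p and miR-30d-5p, were left out, so some families were incomplete or absent. With the rest, edgeR's test of differential usage was run over the 23 seed families with at least 2 tested members. Of these, 47.8% had an adjusted p under 0.05. The change of the log2 ratio of miR-26a-5p to miR-26b-5p from colon EVs to BMDC EVs was −0.69, with an unadjusted p of 0.0364 and an adjusted p of 0.0649 by edgeR, so it did not pass. The ratio passed without colon EV replicate 1, with −0.70 and edgeR adjusted p = 0.0267, and with library totals in the fit of the dispersion, with −0.69 and adjusted p = 0.0419. The change stayed between −0.77 and −0.64 with each library left out, while the edgeR adjusted p ran from 0.0267 to 0.235 over all alternatives. By its p, the miR-26 pair was number 12 of the 23 families, just after the 11 that passed.

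The balance of miR-103-3p and miR-107-3p did not pass a test. miR-107-3p held 5.45%, 5.25% and 7.83% of the counts of the pair in colon EV replicates 1, 2 and 3, with 95% Wilson intervals from 4.72% to 6.29%, 4.14% to 6.62% and 6.19% to 9.86%. In BMDC EVs it held 7.54%, 6.45% and 10.9%, with intervals from 5.57% to 10.1%, 4.30% to 9.57% and 8.78% to 13.6%. Colon EV replicate 3 lay above BMDC EV replicates 1 and 2, and BMDC EV replicate 3 was the highest. The ratio of miR-103-3p to miR-107-3p was 15.7 ± 3.37 (SD, n = 3) for colon EVs against 11.6 ± 3.20 (SD, n = 3) for BMDC EVs, with p = 0.300 in the exact two-sided permutation test. Its log2 change in the fit was −0.51, with an adjusted p of 0.211 by edgeR. The BMDC EV libraries held 22.1 to 71.9 counts of miR-107-3p, and the size of shift that could be detected at this depth was not tested.

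**Figure D3:**
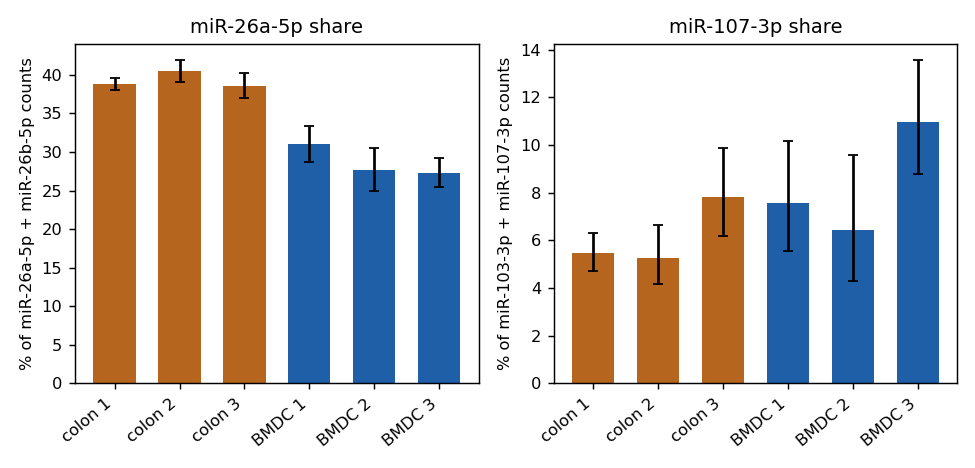
Share of miR-26a-5p in the counts of miR-26a-5p and miR-26b-5p (left) and of miR-107-3p in those of miR-103-3p and miR-107-3p (right), in percent, with 1 bar per library (colon EVs brown, BMDC EVs blue) and 95% Wilson intervals for counting error. The miR-26a-5p share was 38.6% to 40.5% in colon EVs and 27.3% to 31.0% in BMDC EVs, whereas the miR-107-3p shares overlapped between the sources.

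Among the other seed families, the 3 with the lowest p in the balance test had larger shifts between members. In the let-7 family, with 10 tested members, the log2 fold changes ran from −2.97 for let-7c-5p to 1.85 for let-7i-5p, with an adjusted p of 1.30e-23 by edgeR for the family. The family of miR-125a-5p, miR-125b-5p and miR-351-5p ran from −2.65 to 4.21, with an adjusted p of 2.63e-13 by edgeR, and that of miR-148a-3p, miR-148b-3p and miR-152-3p from −3.13 to −0.15, with an adjusted p of 2.12e-11 by edgeR. The difference of 0.69 on the log2 scale between the miR-26 paralogs was smaller than the span of each of these families. They were picked by their low p in the same test and have more tested members, so a larger span follows in part from the choice.

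Family totals do not depend on how reads are divided between paralogs, provided that each read is counted once and within the family. Whether reads that match both paralogs were dropped is not given. Summed over both 5p members, miR-26 had a normalized CPM of 32376, 22392 and 20464 in colon EV replicates 1, 2 and 3 and of 9971, 10044 and 10411 in BMDC EV replicates 1, 2 and 3. The BMDC EV libraries lay close together, and all were below the lowest colon EV library. How many other family totals separate in this way was not counted. The log2 fold change of the total was −1.31 (standard error 0.228, edgeR adjusted p = 8.71e-05), a 2.47-fold higher level in colon EVs. Among the 180 totals tested, miR-26 was number 9 in abundance in colon EVs and number 14 in BMDC EVs. miRNAs without a matched sequence stand among these 180 as single entries. One is miR-30d-5p, at 13914 normalized CPM in colon EVs, which was not added to the miR-30 total of 13605. The places therefore hold for these entries and not for complete families. Of the 180 entries, 77.2% were called in either direction and 35% were called higher in colon EVs. The miR-26 total was smaller in size without BMDC EV replicate 2 and with library totals alone, at −0.83 in both, and passed the test in both.

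Summed in the same way, miR-103/miR-107 had a normalized CPM of 6447, 6250.2 and 5212 in colon EV replicates 1, 2 and 3 and of 3347, 3415 and 3312 in BMDC EV replicates 1, 2 and 3. The sources did not overlap, and here too the number of other family totals without overlap was not counted. The log2 fold change of the total was −0.83 (standard error 0.198, edgeR adjusted p = 0.00121), a 1.78-fold higher level in colon EVs. Like that of miR-103-3p, the call was lost without BMDC EV replicate 1, 2 or 3, at −0.44, −0.39 and −0.39 with edgeR adjusted p = 0.0888, 0.208 and 0.139, and with library totals alone, at −0.37 with adjusted p = 0.0807.

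The balance between the 2 families was compared in the same way. The miR-26 5p total was 5.02, 3.58 and 3.92 times the miR-103/miR-107 total in colon EV replicates 1, 2 and 3 and 2.98, 2.95 and 3.14 times it in BMDC EV replicates 1, 2 and 3. No BMDC EV library reached the lowest colon EV library, with p = 0.10 in the exact two-sided permutation test, which could not go lower. How many ratios of other families separate in this way was not counted. A further ratio, of miR-26a-5p to miR-103-3p, was chosen after the values were seen. In colon EVs miR-26a-5p was 1.53 to 2.06 times as abundant as miR-103-3p, while in BMDC EVs the ratio was 0.869 to 0.999, and their normalized CPM there overlapped. The exact two-sided p of this ratio was 0.10 as well, and after adjustment over the 4 ratios compared the p was 0.133 for each of the 3 ratios without overlap and 0.300 for miR-103-3p over miR-107-3p. Levels of different miRNAs within a library also carry the efficiency with which each was ligated and amplified, which was not tested, and such a bias cancels when the ratio is compared between sources only if it is equal in both.

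Of the miRNAs with an offset form of the miR-103-3p seed, miR-16-5p, miR-15b-5p and miR-322-5p were higher in BMDC EVs. In the miR-15/16 group, known for its effect on cell cycle genes, the first 6 bases of miR-103-3p start 1 base later, at base 2, so that the seeds overlap but are offset. The most abundant of the group is shown for comparison with the seed in capitals.
miR-16-5p: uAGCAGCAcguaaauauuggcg

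Of the 6 listed miRNAs of that group, 4 were tested, and these 3 were higher in BMDC EVs (40.5% of all tested miRNAs were), none was higher in colon EVs (36.4% of all) and miR-15a-5p did not pass, with a median log2 fold change of 1.12 beside 0.19 for all tested miRNAs. miR-16-5p had a normalized CPM of 49516, 34575 and 38152 in colon EV replicates 1, 2 and 3 and of 70032, 85240.2 and 117213 in BMDC EV replicates 1, 2 and 3, a log2 fold change of 1.16 (standard error 0.253, edgeR adjusted p = 0.000427). miR-15b-5p rose by 1.09 and miR-322-5p by 3.42 on the log2 scale, with edgeR adjusted p = 0.000589 and 2.21e-07. miR-195a-5p and miR-497a-5p did not reach the count filter.

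A position inside an intron was common among tested miRNAs. Besides the members, 76 tested miRNAs had all their hairpins in introns of protein-coding genes on the same strand. Of these, 32 were higher in BMDC EVs, 26 were higher in colon EVs and 18 did not pass, beside 40.5% and 36.4% of all tested miRNAs called higher in BMDC EVs and colon EVs. Their median log2 fold change was 0.61, beside 0.19 for all tested miRNAs. miR-26b-5p, miR-103-3p and miR-107-3p were below this median, and miR-26a-5p was left out of the list because of the Ctdsp2 exon at the end of its hairpin.

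The miRNAs whose pattern over the 6 libraries was most like each member were found by the root mean square difference of log2 normalized CPM, with a prior count of 2, after centring. For miR-26a-5p these were miR-30e-5p, with a difference of 0.18, miR-23b-3p, with 0.19, and miR-378c, with 0.26. miR-378c lay near the floor in BMDC EVs, at a normalized CPM of 5.03 to 12.9 over the libraries, and its log2 fold change was −2.75 (standard error 0.664), so its likeness rests on few counts. let-7f-5p, with 0.090, miR-103-3p, with 0.19, and let-7a-5p, with 0.21, were closest to miR-26b-5p. miR-103-3p was nearest to let-7a-5p, with 0.10, let-7f-5p, with 0.11, and miR-30d-5p, with 0.17. The pattern of miR-107-3p was most like those of let-7d-5p, with 0.21, miR-15a-5p, with 0.23, and miR-24-3p, with 0.26, none of which passed the test between the sources. These distances are descriptions over libraries that share a scaling.

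**Figure D4:**
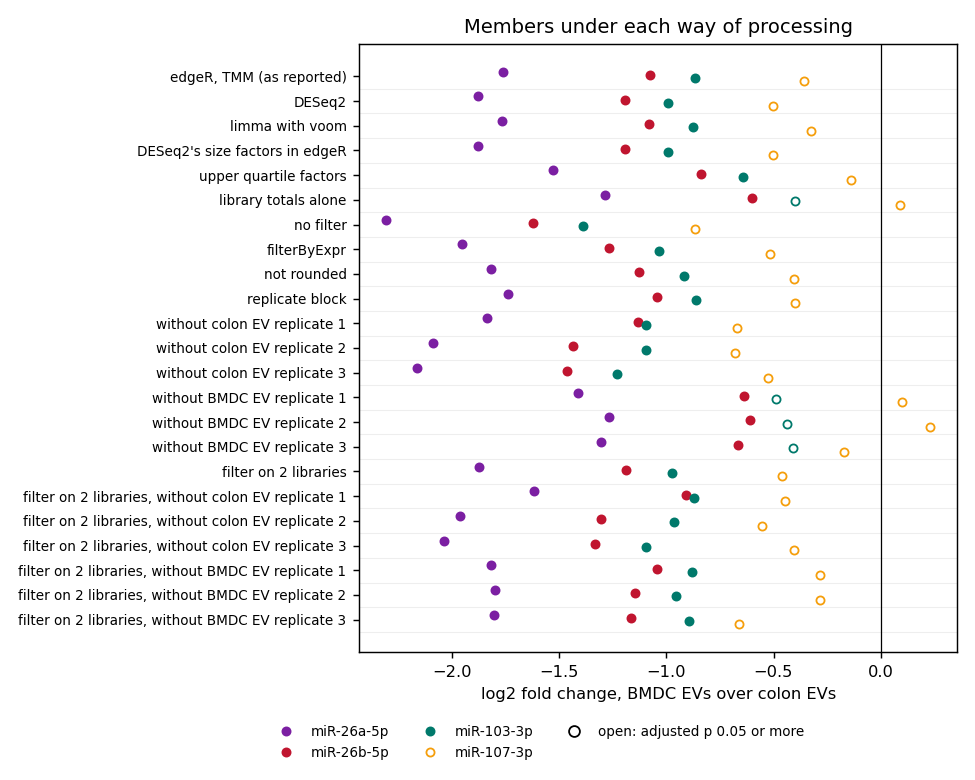
Log2 fold change of BMDC EVs over colon EVs for the 4 tested members under each of the 23 ways of processing, 1 per row, with filled symbols for an adjusted p under 0.05 and open symbols otherwise. miR-26a-5p, from −2.30 to −1.26, and miR-26b-5p, from −1.62 to −0.60, were called in each of them, miR-103-3p was not called in 4 of them, and miR-107-3p was called in none and lay on both sides of 0.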

How the data were processed

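Small RNA libraries (QIAseq miRNA kit) of 3 colon EV and 3 BMDC EV preparations were analysed. In the table deposited by the authors, each library has a column of estimated counts of mature miRNAs, which are not normalized and not always whole. The submitters' processing notes name STAR 2.7.6a, featureCounts 1.6.3, DESeq2 1.30.1 and GRCm38 (mm10), without their roles. The miRNA annotation, the counting of reads with several matches and the use of molecular identifiers are not given in the sources used here. Columns and groups were matched by the sample labels, with 0 columns left over.

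Counts were rounded to whole numbers and tested in R 4.3.3 with edgeR 4.0.16 (quasi-likelihood, TMM, no block) over the 220 miRNAs for which 3 or more libraries had 10 or more counts, with Benjamini-Hochberg adjustment over all of them. Log2 fold changes are BMDC EVs over colon EVs. Intervals of fold changes use the standard error, the size divided by the square root of F. Seed families were formed from bases 2 to 8 of the RefSeq mature sequences, which 195 of the tested miRNAs had. The other tested miRNAs were single entries among the family totals and were left out of the balance test. Their sums were tested with the TMM factors of the miRNA table, and their balance with edgeR's diffSpliceDGE, whose natural logs were converted to log2. Ratios per library were compared by exact permutation. Wilson intervals are at 95%. Alternatives were DESeq2 1.42.0, limma 3.58.1 with voom, other scalings and filters, unrounded counts, the replicate block and leaving out each library. A filter on 2 libraries and TMM factors of the family table were added after the data were seen.

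The members and lists were chosen with earlier results of these data known. Beside the members, the text names the opposite arms, the miR-15/16 list, the 3 nearest miRNAs by pattern and the 3 other seed families with the lowest p. Numbers shared by replicates of the sources were not taken as a pairing. The correlation of deviations was −0.14, −0.06 and −0.13 for the pairs 1, 2 and 3, beside −0.04 to 0.14 for pairs of unlike number. With deviations from the mean of 3 libraries, these values cannot show whether the preparations were paired. Libraries of 1 source differed by more than sampling noise (chi-square of 6.28 or more for each degree of freedom), so none was taken as a duplicate. On simulated data, edgeR recovered 34 of 35 miRNAs changed by 2 and 21 of 32 changed by 1 on the log2 scale among 236 tested, with 1 call among 169 unchanged. The balance test recovered 8 of 8 families in which 1 member was shifted by 2 on the log2 scale, with 2 calls among 15 unchanged. In these simulations both sources had the same mean profile apart from the changed miRNAs, which were a minority. In the data 76.8% of tested miRNAs were called, so these rates need not hold for them. Balance shifts as small as those of the members, −0.69 and −0.51, were not simulated. Figures were drawn with matplotlib 3.10.9.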

Additional observations from a re-analysis of the deposited data

How the results depend on the processing

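The calls of miR-26a-5p and miR-26b-5p and of the miR-26 total held in every alternative run. miR-103-3p and the miR-103/miR-107 total kept their direction in every alternative run. With library totals alone, miR-103-3p was at −0.40 (edgeR adjusted p = 0.0619), the miR-103/miR-107 total at −0.37, miR-107-3p turned to 0.088, and the ratio of miR-26a-5p to miR-26b-5p passed at −0.69. With no filter, where 771 miRNAs in place of 220 were tested, 17 seed families passed the balance test in place of 11. With each library left out, the log2 fold change lay between −2.16 and −1.26 for miR-26a-5p, −1.46 and −0.61 for miR-26b-5p, −1.23 and −0.41 for miR-103-3p, −0.68 and 0.23 for miR-107-3p, −1.70 and −0.83 for the miR-26 total and −1.18 and −0.39 for the miR-103/miR-107 total. The sign of miR-107-3p turned without BMDC EV replicate 1, at 0.10, or 2, at 0.23. The ratio of the miR-26 paralogs lay between −0.77 and −0.64 and that of miR-103-3p to miR-107-3p between −0.70 and −0.24. With the filter set to 2 libraries as well, the ranges were −2.03 to −1.61, −1.33 to −0.91, −1.09 to −0.87 and −0.66 to −0.28 for the 4 members in the same order. Of the tested miRNAs, the number called was 89 for a higher level in BMDC EVs and 80 for colon EVs, with ranges of 67 to 117 and 59 to 114 over the alternatives. The number tested ran from 187 to 771 over these fits. Both highest numbers called came from the fit with no filter, in which 30% of 771 were called, beside 76.8% of 220 in the fit reported here. The cause of these shifts was not tested. The replicate block changed no call of a member: miR-26a-5p was at −1.74, miR-26b-5p at −1.04, miR-103-3p at −0.86 and miR-107-3p at −0.40, the miR-26 ratio at −0.69 and that of miR-103-3p to miR-107-3p at −0.46. Whether the shared numbers pair the preparations is not known. Without a filter, where the arms of 148 hairpins could be compared, the 3p arm of Mir26b shifted by 0.40 on the log2 scale relative to the 5p arm (edgeR adjusted p = 0.872), from at most 7.1 counts per library. Among the members, miR-107-3p and miR-26b-3p rest on the fewest counts.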
